A study of Mus musculus with 4 samples.

Results

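A set of 5091 islands of histone H4 lysine 16 acetylation (H4K16ac) was called in mouse embryonic stem cells (ESC) and not in neural progenitor cells (NPC), yet lay close to an island that was called in NPC. An island is a stretch of the genome in which reads from the H4K16ac chromatin immunoprecipitation (ChIP) exceed the background. The 5091 were taken from the 39508 ESC islands on chromosomes 1 to 19 by 4 values: a width above 2000 bp and below 8000 bp, a density below 200 reads per kb of island, no base shared with an NPC island, and a gap of 10 kb or less between facing edges. They are called near-NPC islands here. They made up 12.9% of the ESC islands (exact Clopper-Pearson 95% interval 12.6% to 13.2%) and 44.6% of the 11424 ESC-only islands within the same bounds of width and density. Whatever their width and density, 59.2% of ESC islands on these chromosomes shared no base with an NPC island, and 21.0% shared none and had one at 10 kb or less. They covered 19.6 Mb, or 10.3% of ESC island bases, and held 1747113 reads, or 9.91% of ESC island reads. The 2 lists together held 88848 islands.

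NPC in this study were 46c cells after 5 days of differentiation with NB27 and Neuro2 supplements, sorted for GFP, and ESC were the undifferentiated 46c cells, an ES line with GFP in the Sox1 gene. Chromatin was cut with micrococcal nuclease (MNase), 1 antibody lot served both cell types, and each cell type had 1 H4K16ac library and 1 MNase input library. Both cell types thus come from 1 line, and NPC are the cells that had switched on the reporter. Island reads totalled 24386370 in NPC and 17935144 in ESC, and the median island held 313 reads in NPC and 277 in ESC, for a counting error of 5.65% and 6.01%. No replicate was analysed for either cell type, so differences between them have no check against the spread between cultures, and none was tested. Intervals cover counting only and treat islands as independent draws. Fewer cells that carry the mark and less of it per cell cannot be told apart in such pools. Positions are on mm9. They were not matched to genes, because the gene tables used here are on another build, so the labelled cell types were not checked at marker genes.

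H4K16ac is laid down mainly by the acetyltransferase MOF. It removes a positive charge from the histone H4 tail, which otherwise contacts the neighbouring nucleosome, and is known from active genes and from enhancers. The mark often spreads over broad stretches, which a caller can divide into several neighbouring islands.

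The near-NPC islands carrying the most reads were wide, and the NPC islands beside them held fewer reads per kb. The first was on chromosome 3. Its nearest NPC island, 34561201 to 34564400, held 204 reads (exact Poisson interval 177 to 234) at 63.8 reads per kb, against 1250 reads (1182 to 1321) at 169 reads per kb in the ESC island at 34546801 to 34554200. The gap was 7000 bp, and on the other side no NPC island was called for 242800 bp. The second, also on chromosome 3, had an NPC neighbour at 87722401 to 87724000 with 128 reads, against 1226 reads in the ESC island at 87709201 to 87716800. There the next ESC island began 1200 bp further on and took in that NPC neighbour whole. The third was the only one of the 10 with most reads that was also among the 5 densest. On chromosome 7, the NPC island at 17377201 to 17379200 held 168 reads at 84 reads per kb, against 1154 reads at 199 reads per kb in the ESC island at 17364601 to 17370400.

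Across the 10 with most reads, the nearest NPC island held 115 to 1091 reads at 61 to 95.8 reads per kb (median 74.2), against 1048 to 1250 reads at 142 to 199 reads per kb in the ESC island. The NPC neighbour was less dense in 10 of the 10 and had fewer reads in 9. The exception was on chromosome 6, where an NPC island of 16 kb, 82701001 to 82717000, held 1091 reads, against 1069 in the ESC island of 6.2 kb at 82719601 to 82725800. Since these 10 were picked for high ESC reads, the direction of this contrast is partly set by the choice. The median of 76.6 reads per kb over all NPC islands on chromosomes 1 to 19 lay inside the range of these neighbours. In 3 of the 10 the nearest NPC island shared no base with any ESC island, and in 3 NPC islands lay within 10 kb on both sides. The remaining ESC islands of the 10 began at 125439401 on chromosome 6 (1150 reads), 32309401 on chromosome 16 (1107), 3653801 on chromosome 7 (1096), 84103801 on chromosome 17 (1066), 136283001 on chromosome 4 (1054) and 97833001 on chromosome 13 (1048).

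**Figure D1:**
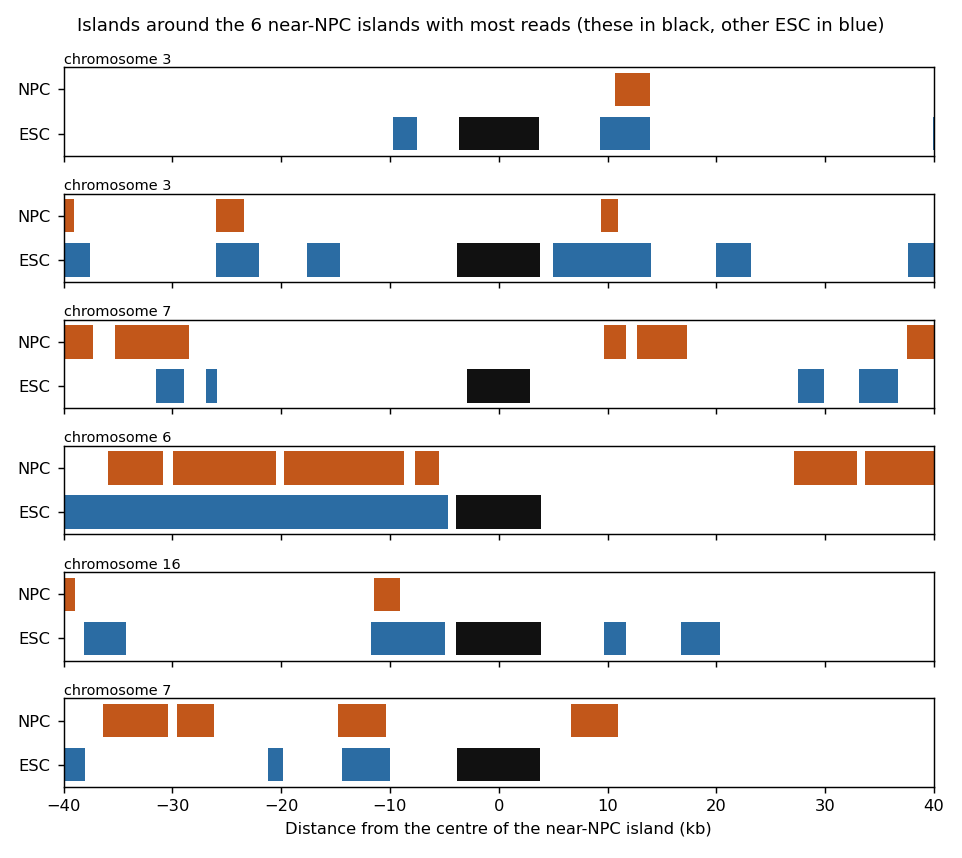
Each panel shows the NPC islands (upper row) and the ESC islands (lower row) within 40 kb of the centre of 1 of the 6 near-NPC islands with most reads, which is drawn in black. The horizontal axis is the distance from that centre in kb. In the first panel the only NPC island starts 7000 bp past the edge of the black island.

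Near-NPC islands were mostly of modest width and density. Widths ran from 2200 to 7800 bp with a median of 3400 bp (quartiles 2800 and 4800 bp), and 65.0% were 4000 bp or less. Reads per island ran from 137 to 1250 with a median of 303 (quartiles 233 and 415). Density ran from 45.7 to 199.7 reads per kb with a median of 84 (quartiles 71.4 and 103). Because the choice bounds width and density, these are descriptions. The 5 densest lay at 198 to 199.7 reads per kb, just inside the bound, and 19 islands that met the other conditions lay at 200 reads per kb or more. At the width bounds, 405 near-NPC islands measured 2200 bp, with 409 otherwise eligible islands at 2000 bp, and 43 measured 7800 bp, with 27 at 8000 bp. The 43 widest held 426 to 1150 reads.

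Compared with the other intermediate ESC islands, defined by the same bounds, near-NPC islands stood between those far from NPC islands and those that shared bases with them in width. The median was 3400 bp in near-NPC islands, 3200 bp in the 6333 ESC-only islands with the nearest NPC island over 10 kb away (distant islands), and 4200 bp in the 8980 that shared a base with an NPC island (shared islands). Median density was 84 reads per kb in near-NPC, 86.8 in distant and 81.3 in shared islands. Densities of at least 120 reads per kb were found in 13.6% of near-NPC islands (12.7% to 14.6%), 20.6% of distant islands (19.6% to 21.7%) and 14.1% of shared islands (13.4% to 14.9%). Over all ESC islands on chromosomes 1 to 19 the median was 3000 bp and 92.5 reads per kb.

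**Figure D2:**
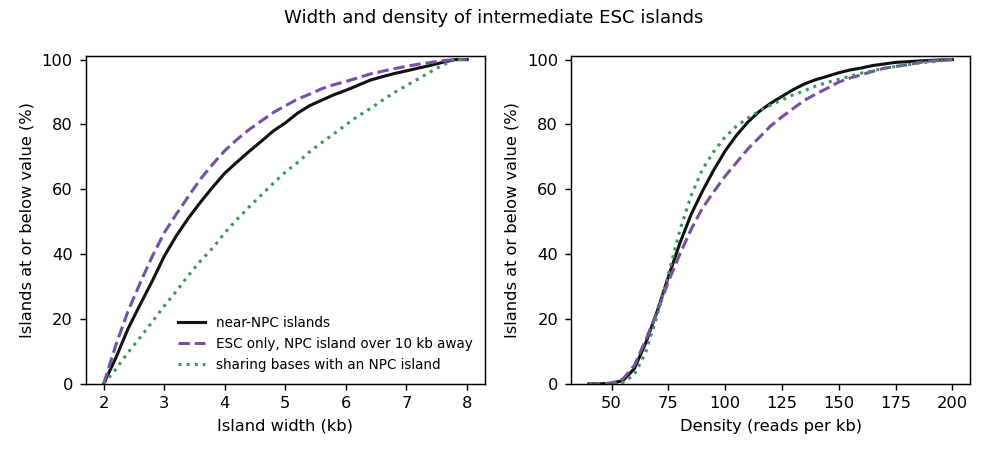
Cumulative share of islands (%) by width in kb (left) and by density in reads per kb (right), for near-NPC islands (solid), distant ESC-only islands (dashed) and shared islands (dotted), all within the same bounds. The width curve of near-NPC islands runs between the other two, with medians of 3400, 3200 and 4200 bp.

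The densities of near-NPC islands lay in the range at which NPC islands of their width were called. Among NPC islands of the same width as each near-NPC island, the 5th percentile of density was exceeded by 97.6% of near-NPC islands and 97.7% of all intermediate ESC islands, and the median by 71.1% of near-NPC islands. The NPC median was exceeded by 71.8% of distant, 71.4% of shared and 71.5% of all intermediate ESC islands, so near-NPC islands did not stand apart from these. Per 1000000 island reads of each list, 99.5% of near-NPC islands exceeded the NPC median of their width, as did 99.2% of distant, 99.8% of shared and 99.5% of all intermediate ESC islands. Island reads grow with the bases called, which were more in NPC, so this scale does not correct for library depth. At 3000 bp, for example, the 1548 NPC islands had a lowest density of 47 and a median of 72 reads per kb, and the 394 near-NPC islands a lowest of 56.7 and a median of 83.8. Reads outside islands are not listed, so the NPC signal inside a near-NPC island is unknown, and a stretch without an NPC call may still carry the mark.

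The gap to the nearest NPC island, which the choice limits to 10 kb, was most often just above 600 bp. Its median was 3800 bp (quartiles 1600 and 6600 bp), and 62.6% of gaps were 5000 bp or less. In the steps of 200 bp set by the window of the island caller, there were 66 islands at a gap of 600 bp and 332 at 800 bp. Gaps of 0 to 600 bp occurred in 151 islands (2.97%, 2.52% to 3.47%), gaps of 800 to 1400 bp in 1051 (20.6%, 19.5% to 21.8%) and gaps of 1600 to 2200 bp in 506 (9.94%, 9.13% to 10.8%). The same step was seen in all 8294 ESC-only islands with an NPC island at 10 kb or less, of which 2.80% had gaps of 0 to 600 bp and 19.6% gaps of 800 to 1400 bp. It was also seen when the lists were exchanged, at 2.51% and 23.0% of 11175 NPC-only islands. Within each list the smallest gap between neighbours was 800 bp, since smaller gaps are joined at calling. Whether that joining bears on the gaps between the lists was not tested. How each list was called is known only from its name and the tool, and whether reads of the other cell type entered a call is not given in the sources used here. The gaps, and the absence of an NPC call, hold only for the lists as deposited. At the limit of the choice, 66 near-NPC islands lay at 10000 bp and 76 distant islands at 10200 bp.

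**Figure D3:**
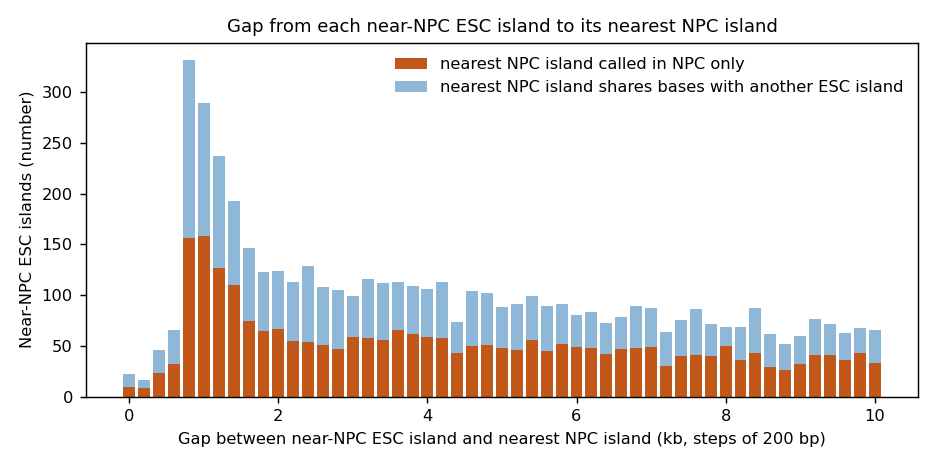
Number of near-NPC islands at each gap to the nearest NPC island, in steps of 200 bp from 0 to 10 kb. Colours split them by whether that NPC island was called in NPC only (lower part) or shares bases with another ESC island (upper part); 66 islands sat at 600 bp and 332 at 800 bp.

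NPC islands lay on both sides within 10 kb in 1378 near-NPC islands (27.1%, 25.9% to 28.3%), on the side of lower coordinates only in 1831 and on the side of higher coordinates only in 1882. Among all ESC islands on chromosomes 1 to 19, 16.7% had NPC islands within 10 kb on both sides, but that background includes distant islands, which by definition have none. Among shared islands the figure was 26.5% (25.6% to 27.5%). The choice gives each near-NPC island an NPC island on at least 1 side, which shared islands need not have. These shares are thus not on equal terms. In the 1378, the stretch between the 2 NPC islands had a median of 12400 bp, and the ESC island filled a median of 31.1% of it. In 418 of them that stretch was at most 10 kb.

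The tightest fits were ESC islands that filled 73.3% to 88.1% of a break between NPC islands. On chromosome 10, NPC islands at 59521401 to 59567200 (3531 reads) and 59571001 to 59577200 (503 reads) left 3800 bp free, in which an ESC island at 59567601 to 59570600 held 222 reads, with 400 bp to spare on each side. On chromosome 1, an NPC island of 3.8 kb at 21210401 with 245 reads abutted the ESC island at 21208201 to 21210400, which held 153 reads, and another NPC island of 730 reads ended 800 bp before it. On chromosome 2, NPC islands with 287 and 215 reads stood 0 and 1000 bp from an ESC island of 7.4 kb at 168754801 with 610 reads. The other 2 of the 5 tightest began at 120476401 and 31749801 on chromosome 11. In 4 of these 5 the nearest NPC island was less dense in reads per kb than the ESC island. Over all 5091 near-NPC islands it was denser in 35.0%, so this is not particular to the tightest fits.

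The NPC islands beside near-NPC islands were ordinary in size and density but often part of an acetylated stretch seen in ESC too. The 5091 had 4698 distinct nearest NPC islands, of which 4322 served 1 near-NPC island, 359 served 2 and 17 served 3. Their median width was 4400 bp and their median density 76 reads per kb, against 4200 bp and 76.6 reads per kb over all 48170 NPC islands on these chromosomes. Widths of 8000 bp or more were reached by 24.7% of them, beside 24.2% of all NPC islands. A base shared with some ESC island was found in 46.8% of them (45.3% to 48.2%), beside 34.6% of all NPC islands. Those 34.6% include NPC islands in stretches with no ESC island near, so this difference is in part tied to the choice.

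The NPC neighbour was wider than the ESC island in 57.4% of cases and denser in 35.0% (33.7% to 36.3%). Per 1000000 island reads, it was denser in 5.74%. The ratio of median densities, NPC neighbour over near-NPC island, was 0.905 in reads per kb and 0.665 per 1000000 island reads. Over all islands on the chromosomes used, whatever their width and density, the median was 76.6 reads per kb in NPC and 92.5 in ESC. Per 1000000 island reads, these medians were 3.14 and 5.16. Median width was 4200 bp in NPC and 3000 bp in ESC. The same directions thus held for the lists as a whole and are not particular to these pairs. No share over other pairs stands beside these values.

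By their neighbours, near-NPC islands fell into 2 groups of similar size. In 2399 (47.1%, 45.7% to 48.5%) the nearest NPC island overlapped another ESC island, so that the near-NPC island lay beside a site called in both cell types. Of these, 97.0% had another ESC island within 10 kb, and the median gap to it was 2200 bp, which follows in part from the grouping. In 2237 the next ESC island on that side was the one that met the NPC island. There the facing edges of the NPC and ESC islands stood at the same base in 511, and within 600 bp of each other in 1153 (51.5%, 49.4% to 53.6%). Edges fall in steps of 200 bp, and no share over all overlapping islands stands beside these values.

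In the other 2692 (52.9%, 51.5% to 54.3%) the nearest NPC island was called in NPC only. Another ESC island lay within 10 kb in 43.3% of these. The median gap to the nearest other ESC island was 12600 bp, and both values follow in part from the grouping. In 2120 of the 2692 (78.8%, 77.2% to 80.3%) the near-NPC island was in turn the nearest ESC island of its NPC neighbour. Neither island of such a pair shared a base with an island called in the other cell type. A high share follows in part from the grouping, since the NPC neighbour meets no ESC island and lies within 10 kb. No share over other NPC-only islands stands beside it. In these pairs the NPC island had a median width of 4000 bp, 284 reads and 75 reads per kb, and the ESC island 3400 bp, 294 reads and 84.2 reads per kb. Their centres were a median of 8000 bp apart (quartiles 5800 and 10700 bp). Width and density of the near-NPC islands differed little between the groups, with medians of 3600 bp and 82.9 reads per kb beside NPC islands that met another ESC island, and 3400 bp and 85 reads per kb beside NPC-only ones.

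Near-NPC islands often lay close to other ESC islands, which the choice did not ask for but is tied to. Another ESC island was found within 10 kb of 3493 (68.6%, 67.3% to 69.9%), beside 53.5% of all ESC islands on these chromosomes. The share was 44.0% (42.8% to 45.3%) in distant islands and 64.8% (63.8% to 65.8%) in shared islands. The share was 97.0% in near-NPC islands beside an NPC island that met another ESC island, for which an ESC neighbour is near by construction. Those beside an NPC-only island had 43.3%, close to the distant islands and below all ESC islands. That group leaves out cases in which an ESC island meets the nearest NPC island, so its share is also lowered by construction. The median gap to the next ESC island was 5000 bp for near-NPC, 12400 bp for distant and 5200 bp for shared islands. That next ESC island shared a base with an NPC island in 56.5% of near-NPC, 15.6% of distant and 60.3% of shared islands. Over all ESC islands on these chromosomes it was 42.4%. Since distant islands have no NPC island within 10 kb, a close ESC neighbour of theirs can hardly meet one, and their low share largely follows from the definition.

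The surroundings of near-NPC islands held more island bases of both cell types than those of distant islands. This held also from 10 to 50 kb, where NPC coverage is still tied to the choice. From 10 to 50 kb on each side, NPC islands covered 29.5% and ESC islands 22.1% of bases beside near-NPC islands. Beside distant islands they covered 11.1% and 12.2%, and beside shared islands 32.3% and 23.3%. Beside all ESC islands on these chromosomes they covered 23.4% and 18.1%. Over chromosomes 1 to 19, counted up to the last island, NPC islands covered 12.4% and ESC islands 7.68% of bases. In steps of 1 kb, NPC coverage beside distant islands rose from 1.02% at 10 kb to 14.0% at 49 kb. Beside near-NPC islands it fell from 36.6% to 27.8% between these steps. The coverage by ESC islands was higher beside near-NPC than beside distant islands out to 50 kb. It was not itself part of the choice, but is tied to it where ESC and NPC islands share bases.

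**Figure D4:**
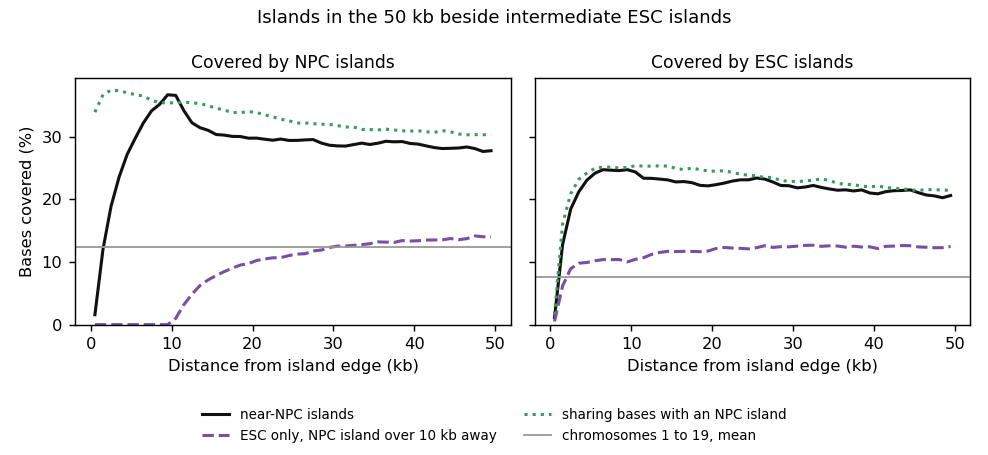
Share of bases (%) covered by NPC islands (left) and by ESC islands (right) in steps of 1 kb out to 50 kb from the island edge, both sides together, for near-NPC (solid), distant (dashed) and shared islands (dotted). The grey line is the mean over chromosomes 1 to 19, at 12.4% for NPC and 7.68% for ESC; the zero up to 10 kb for distant islands in the left panel follows from their definition.

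Near-NPC islands occurred on each of the 19 chromosomes. Chromosome 11 had the highest share, with 406 of 2564 ESC islands (15.8%, 14.4% to 17.3%), and chromosome 13 the lowest, with 172 of 1863 (9.23%, 7.96% to 10.6%). As a share of intermediate ESC-only islands, the same chromosomes stood at the ends, at 55.1% and 30.8%. NPC islands numbered 27.6 per Mb on chromosome 11 and 17.3 per Mb on chromosome 13. Over the 19 chromosomes, NPC islands per Mb and the share of intermediate ESC-only islands had a Spearman rank correlation of 0.751. Nearness to an NPC island defines the set, so a relation of this kind is tied to the choice. Whether the number of NPC islands sets the highest and lowest shares was not tested. Chromosome 3 had the fewest NPC islands, 12.9 per Mb, but its share of all ESC islands, 11.4%, was above that of chromosome 13. Median density of near-NPC islands ran from 74.5 reads per kb on chromosome 18 to 90 on chromosome 11, and the median gap from 3400 to 4400 bp.

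**Figure D5:**
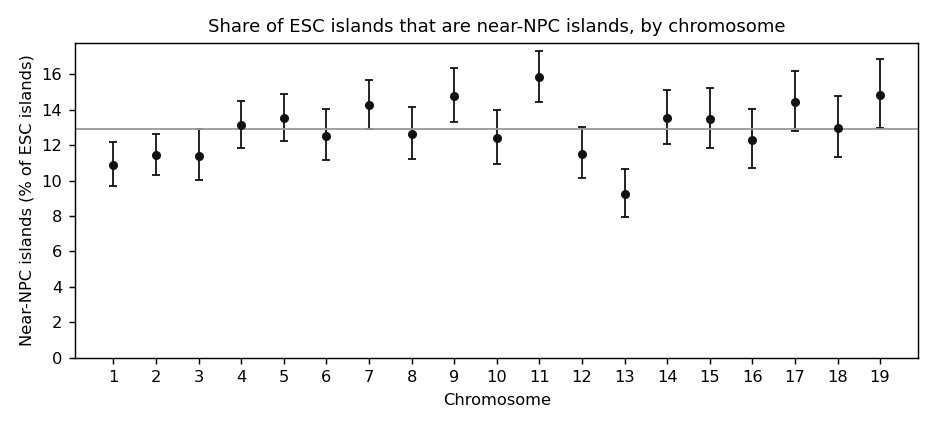
Near-NPC islands as a percentage of all ESC islands on each chromosome, with exact Clopper-Pearson 95% intervals as bars and the value over all 19 chromosomes, 12.9%, as a grey line. Chromosome 11 lies highest at 15.8% and chromosome 13 lowest at 9.23%.

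In the order of ESC islands, most near-NPC islands had none of their own kind next to them, but some followed each other. With no other ESC island between them, 3551 (69.8%) were single, 1250 came in runs of 2, 216 in runs of 3 and 64 in runs of 4. Near-NPC islands were 12.9% of ESC islands, so a high share of singles follows in part from their number. No share for another order of the islands stands beside these values. The longest runs, of 5, were on chromosome 6 at 100518801 to 100578800 and on chromosome 9 at 47571001 to 47703000. In the run on chromosome 6, 4 NPC islands of 1200 to 3600 bp lay within 10 kb of the stretch and held 106 to 267 reads, against 176 to 461 reads in its 5 ESC islands. In the run on chromosome 9, 8 NPC islands held 118 to 596 reads, against 218 to 371 reads in the ESC islands.

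By window of 1 Mb, 1387 of 2411 windows with any island held a near-NPC island, with a median of 3 in these, and 423 held 5 or more. The windows with most were 4000001 to 5000000 on chromosome 14 and 99000001 to 100000000 on chromosome 15, with 16 each, followed by 132000001 to 133000000 on chromosome 4, with 15. These windows held 48, 45 and 49 NPC islands and 67, 47 and 49 ESC islands. Median densities of their near-NPC islands were 79.6, 86.5 and 90.3 reads per kb.

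Of the 17 NPC islands that served 3 near-NPC islands, the first 5 by chromosome and position show how these groups were built. On chromosome 3, an NPC-only island at 90258601 to 90267000 with 661 reads stood between ESC islands starting at 90247201 (664 reads), 90254401 (401 reads) and 90268401 (210 reads). On chromosome 4, an NPC island at 137337001 to 137341600 with 441 reads stood between ESC islands of 415, 485 and 456 reads starting at 137332201, 137342601 and 137349201. It shared bases with a further ESC island, at 137337201 to 137341600 with 377 reads. On chromosome 5, an NPC island of 11.6 kb at 123804801 with 821 reads had ESC islands of 583, 268 and 759 reads around it. A further ESC island there, at 123804401 to 123815000 with 986 reads, shared bases with it. The other 2 were an NPC island of 191 reads at 158771601 on chromosome 1 and one of 303 reads at 119222801 on chromosome 2. Each of these also shared bases with 1 ESC island.

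Exchanging the lists gave a set of the same kind in NPC. Of the 48170 NPC islands on chromosomes 1 to 19, 6866 were NPC-only islands of the same bounds within 10 kb of an ESC island. Their median width was 4000 bp and their median density 73.6 reads per kb. Near-NPC islands numbered 5091 of the 39508 ESC islands, with medians of 3400 bp and 84 reads per kb. The longer NPC list thus goes with the larger set. Per 1000000 island reads, the median densities were 3.02 reads per kb in the NPC set and 4.68 in near-NPC islands. Island numbers and densities depend on the depth and background of each library, which were not used here. Island reads do not stand in for depth.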

How the data were processed

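H4K16ac ChIP-seq of NPC and ESC was analysed from 2 deposited island lists, 1 library each. The submitters' processing notes name SICER 1.1, Bowtie 0.12.7, bedtools 2.10.1, SAMtools 0.1.7, CASAVA 1.8.2 and mm9. Names of the deposited lists give a false discovery rate of 0.01, windows of 200 bp and gaps of 600 bp. The deposited whole number per island was read as its count of H4K16ac reads, as the authors left it, not scaled to depth or input. Duplicate removal and the use of the input are not given in the sources used here. Deeper libraries give more and wider islands, and total depth is unknown.

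Starts and widths were multiples of 200 bp in 100% of islands with the end read as the last base. Positions printed here count from 1. Shared bases, gaps, coverage and exact intervals were computed with scipy 1.17.1, pandas 2.3.3 and numpy 2.4.6 under Python 3.11.15, and matplotlib 3.10.9 drew the figures. The gap code was tested on simulated data: all 3155 planted gaps were recovered, and all 39508 real gaps equalled those of bedtools 2.31.1.

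Islands were chosen, and comparisons set up, with earlier results of these data known. Named islands were the 10 with most reads, the 5 densest, the 5 widest, the 5 with the smallest summed gaps on both sides, those of the 5 NPC islands nearest to most of them, and the 3 fullest windows of 1 Mb. The 5 widest were taken by position from 43 of equal width and are described by that group. Gene annotation and sequence were not used, because no mm9 genome was used here. Alternatives covered the distance limit, stricter lists, the overlap required, joining of islands, scaling and flank length.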

Additional observations from a re-analysis of the deposited data

How the results depend on the processing

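No paired analysis was possible because each cell type had 1 library, so no library could be left out either. Of 47 recomputed values, 19 lay inside the 95% interval given for the reported value or, for counts and ratios, within 1.5 times of it, and 28 moved; the cause was not tested. The number of near-NPC islands was 3186 with a limit of 5 kb and 2979 among ESC islands of at least the median reads, both fewer by construction. The share with NPC islands on both sides was 16.2% at 5 kb and 40.9% at 20 kb (both sides within that limit), 20.8% with NPC islands of at least the median reads, 24.3% when sharing required 50% of bases, and 23.7% with islands joined across 2000 bp. The share of nearest NPC islands meeting an ESC island was 44.4% at 20 kb, 53.6% with stricter NPC islands, 40.3% with stricter ESC islands and 42.2% with joined islands. Their median width was 4600 bp at 5 kb, 7800 bp with stricter NPC islands, 4800 bp with stricter ESC islands and 5400 bp with joined islands, and their median density 73.6 reads per kb with joined islands. The widths with stricter NPC islands and with joined islands are larger in part by construction. Islands of few reads, which the stricter list drops, are mostly narrow, and joining widens islands. Another ESC island within 10 kb was found for 71.1% at 5 kb, 63.6% at 20 kb, 72.3% and 58.7% with stricter NPC and ESC islands, 67.0% when sharing required 50% of bases and 55.0% with joined islands. The next ESC island met an NPC island for 63.4%, 47.9%, 50.8%, 66.2%, 44.0% and 58.2% under these settings in the same order. For the 44.0%, meeting meant that at least 50% of its bases lay in NPC islands, a stricter measure than for the other values.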

Other observations

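The X chromosome, which the choice left out, had few islands of this kind. Of its 1046 ESC islands, 181 were ESC-only and within the same bounds of width and density, and 7 of these (3.87%, exact interval 1.57% to 7.81%) lay within 10 kb of an NPC island, beside 44.6% on chromosomes 1 to 19. The median gap from such ESC-only islands to the nearest NPC island was 445200 bp on X and 12400 bp on chromosomes 1 to 19. The 7 islands on X had a median width of 4200 bp, 291 reads and 79.6 reads per kb. Few NPC islands were called on X. Chromosomes 1 to 19 held 48170 of all 48278 NPC islands and 39508 of all 40570 ESC islands. Whether depth, background or the mark itself sets the low number on X was not tested.

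Near-NPC islands at small gaps were about as wide and dense as those further off. The median width was 3600 bp and the median density 81.1 reads per kb at gaps below 1 kb, and 3400 bp and 87.5 reads per kb at gaps of 9 kb and more. The median gap to the next ESC island was 2600 bp in the first and 7900 bp in the second of these groups.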
